A study of Mus musculus with 2 samples.

Results

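Reticular cells of the marrow are stromal cells that ensheath vessels and send long processes between blood cells. They are known for making CXCL12, a chemokine that holds blood stem cells in the marrow, and KITL, the ligand of the KIT receptor on those cells. They carry the leptin receptor LEPR, depend on the transcription factors EBF3 and FOXC1, and express adipocyte genes without storing fat, which is why they are also called pre-adipocyte-like. The nuclei described here were 337 barcodes rich in the RNA of these genes and poor in that of Gm16685, Nrg3, Fgf7 and Tnfsf11, out of 4481 barcodes that passed the count minimums (7.52%, exact binomial 95% interval 6.77 to 8.33%). They are called low reticular nuclei below.

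RNA and open chromatin (ATAC) were read from the same nuclei with 10x Multiome. The mice carried Prrx1-cre and 1 R26R tdTomato allele (Prrx1-cre; R26R tdTomato/+), and tdTomato+ cells were sorted from their femoral marrow on postnatal day 21. The Prrx1 enhancer drives the recombinase in limb mesenchyme, and its descendants keep the red label. About 15000 nuclei were loaded, and both sexes of 1 litter were pooled. There was 1 library, so no value below has a replicate, no test between animals was possible, and every interval (95%, exact Poisson for levels and exact binomial for shares) covers counting error only.

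A barcode was kept when it held at least 500 UMIs of genes outside the mitochondrial genome and at least 1000 ATAC counts in peaks, with no limit on mitochondrial RNA. It was called low reticular when Lepr, Cxcl12, Kitl and Ebf3 together made up at least 0.4% of its UMIs, with at least 4 UMIs, and when Gm16685, Nrg3, Fgf7 and Tnfsf11 together stayed under 0.1% or under 2 UMIs. The 190 barcodes that passed the first condition and failed the second are called high reticular nuclei. All 4144 barcodes that were not low reticular, the high reticular ones included, form the other barcodes. For scale, 519 of these were osteoblast-type and 249 blood-type by cuts of the same form on genes of those cells, and free RNA was read from 62603 near-empty barcodes with a median of 226 UMIs.

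Depth and RNA quality differed between the groups. Low reticular nuclei had a median of 1319 UMIs, 639 genes, 8.14% mitochondrial UMIs and 34908 ATAC counts. High reticular nuclei had 1881.5 UMIs, 7.04% mitochondrial UMIs and 39036.5 ATAC counts, and the other barcodes 1754.5, 17.5% and 33952.5. A condition of under 2 UMIs is easier to meet at low depth: low reticular nuclei were 83.5% (75.8 to 89.5%) of the 127 reticular barcodes under 1000 UMIs and 51.7% (44.1 to 59.2%) of the 178 with at least 2000. Comparisons with high reticular nuclei are therefore also given for barcodes of at least 2000 UMIs, of which 92 were low and 86 high reticular.

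The open chromatin is shown first as sequence, because it is the readout that the choice of nuclei used least. The 6 windows are the central 300 bases of peaks on the plus strand of GRCm38 (mm10), read from the RefSeq sequence. The first lies 2.51 kb upstream of Gm16685, in an intron of Il7, and was as open in low as in high reticular nuclei. The second lies inside Cxcl12, in an exon of the annotation. The Anxa11 and Slco1a5 windows come from peaks far more open in low reticular nuclei than in the other barcodes. The last pair comes from peaks far less open in low than in high reticular nuclei. In the first 4 windows capitals mark the letters CCCNNGGG, a core read by EBF factors, and TTNNGCAA, a core read by C/EBP factors of adipocyte and myeloid genes; the first window holds neither. In the last pair of windows capitals mark TGANTCA, the letters of AP-1 (FOS and JUN dimers). Both strands were searched. Among the 6 peaks of highest ratio to the other barcodes with at least 100 counts in low reticular nuclei, only the Anxa11 and Slco1a5 windows hold EBF or C/EBP letters. The windows nearest 9530026F06Rik, 4933406D12Rik, Gm45408 and Gm20619 hold neither.
Peak beside Gm16685, chr3:7610047-7610346: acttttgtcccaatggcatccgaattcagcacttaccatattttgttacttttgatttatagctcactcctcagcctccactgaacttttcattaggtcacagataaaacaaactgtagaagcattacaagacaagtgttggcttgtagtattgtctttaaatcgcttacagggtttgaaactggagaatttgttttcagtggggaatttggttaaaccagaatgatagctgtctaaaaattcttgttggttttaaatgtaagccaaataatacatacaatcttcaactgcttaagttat
Peak inside Cxcl12, chr6:117175327-117175626: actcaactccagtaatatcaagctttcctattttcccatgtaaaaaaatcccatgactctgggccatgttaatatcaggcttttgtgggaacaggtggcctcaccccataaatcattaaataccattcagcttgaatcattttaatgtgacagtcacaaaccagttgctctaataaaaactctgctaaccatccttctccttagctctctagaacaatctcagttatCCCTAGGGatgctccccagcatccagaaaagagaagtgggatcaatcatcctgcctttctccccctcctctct
Peak upstream of Anxa11, chr14:25812320-25812619: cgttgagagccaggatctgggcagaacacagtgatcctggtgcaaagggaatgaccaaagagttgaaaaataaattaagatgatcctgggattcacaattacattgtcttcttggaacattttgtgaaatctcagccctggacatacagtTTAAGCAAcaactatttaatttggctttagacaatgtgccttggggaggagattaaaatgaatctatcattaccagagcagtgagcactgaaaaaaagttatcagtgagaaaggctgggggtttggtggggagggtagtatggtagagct
Peak in an intron of Slco1a5, chr6:142307378-142307677: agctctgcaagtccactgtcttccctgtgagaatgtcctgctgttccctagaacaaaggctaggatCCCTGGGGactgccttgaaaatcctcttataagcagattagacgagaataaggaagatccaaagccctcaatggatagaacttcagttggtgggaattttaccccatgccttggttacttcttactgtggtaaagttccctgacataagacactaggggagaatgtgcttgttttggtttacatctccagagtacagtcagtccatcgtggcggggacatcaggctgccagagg
Peak between genes, nearest start AC104866.2, chr17:49246980-49247279: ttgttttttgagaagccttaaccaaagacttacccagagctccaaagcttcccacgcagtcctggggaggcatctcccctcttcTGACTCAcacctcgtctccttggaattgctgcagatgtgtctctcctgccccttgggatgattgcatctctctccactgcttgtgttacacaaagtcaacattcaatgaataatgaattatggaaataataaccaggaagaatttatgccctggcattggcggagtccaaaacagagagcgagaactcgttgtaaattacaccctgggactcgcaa
Peak between genes, nearest start Gm16237, chr8:125343963-125344262: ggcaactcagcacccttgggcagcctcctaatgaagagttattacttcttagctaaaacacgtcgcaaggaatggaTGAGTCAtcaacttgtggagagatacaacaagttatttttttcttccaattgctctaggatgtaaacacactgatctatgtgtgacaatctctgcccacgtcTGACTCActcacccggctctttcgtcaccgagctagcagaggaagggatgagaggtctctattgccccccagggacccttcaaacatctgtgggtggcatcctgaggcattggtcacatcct
Of the central 300 bases of 203502 peaks, 11.4% held the EBF letters, 15% the C/EBP letters and 20.4% the AP-1 letters. A match describes letters in the window and no binding.

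The RNA that chose the nuclei is given as a description. Levels are UMIs summed over a group and scaled to its non-mitochondrial total (CPM). Lepr was at 1369 CPM (interval 1281 to 1462) in low and at 1641 in high reticular nuclei, against 147.5 in the other barcodes and 144 in free RNA. Cxcl12 was at 2466 CPM (2348 to 2590) in low and 2593 in high reticular nuclei, against 232 in the other barcodes. Kitl was at 2709 CPM (2585 to 2838), 2880 and 242 in the same order. Ebf3, a transcription factor that keeps the marrow niche free of bone, was at 1740 CPM (1640 to 1844), 1540 and 122. All 4 genes were thus 9.29- to 14.3-fold above the other barcodes by the choice itself.

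The genes of the second condition code for a long noncoding antisense RNA (Gm16685), neuregulin 3, the epithelial growth factor FGF7 and RANKL (Tnfsf11), the cytokine that drives osteoclast formation. Gm16685 was at 84.0 CPM (63.2 to 109) in low and at 1438 in high reticular nuclei. Nrg3 was at 22.9 CPM (12.8 to 37.8) and 584, Fgf7 at 59.5 and 408, and Tnfsf11 at 134 and 1016. In the other barcodes Gm16685 was at 131 and Nrg3 at 34.1 CPM, the latter within the interval of low reticular nuclei, and free RNA held 40.3 and 10.03 CPM. Gm16685 lies on the plus strand and overlaps the start of Il7 (chr3:7569994-7613760) on the minus strand, and whether the counting used strand was not given in the sources used here.

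**Figure D1:**
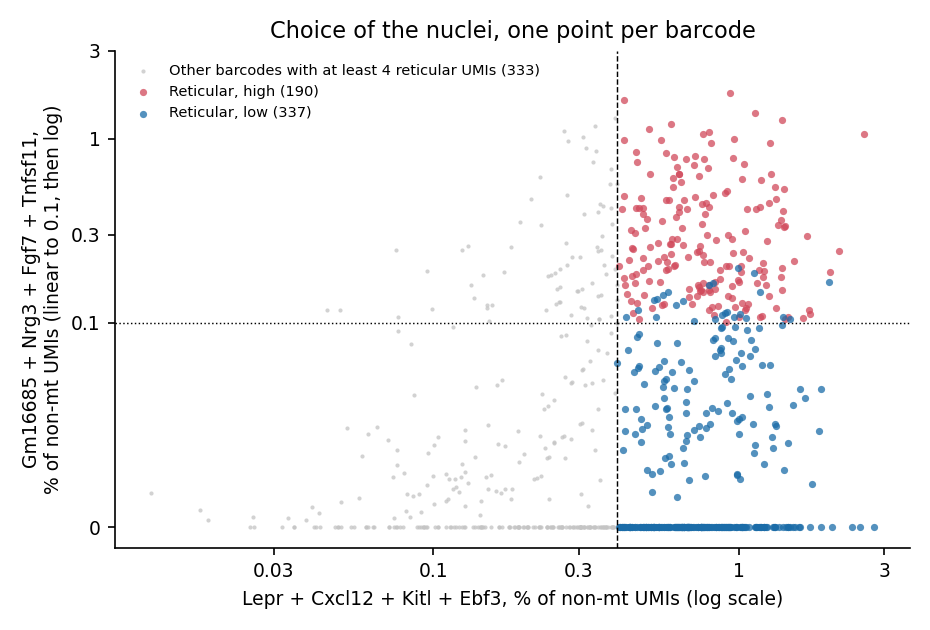
Choice of the nuclei. Each point is a barcode with at least 4 UMIs of Lepr, Cxcl12, Kitl and Ebf3, plotted by the share of these genes (x axis, log scale) and of Gm16685, Nrg3, Fgf7 and Tnfsf11 (y axis, linear to 0.1% and then log) in its non-mitochondrial UMIs, with the cuts of 0.4% (dashed) and 0.1% (dotted) drawn. The 337 low reticular nuclei (blue) run on into the 190 high ones (red), and blue points above the dotted line held under 2 UMIs of the second gene set.

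Both conditions cut through a continuous range. The median share of the 4 reticular genes was 0.738% in low and 0.766% in high reticular nuclei. The 50 members at 0.4 to 0.5% had a median of 0.456%, and 59 barcodes just outside, at 0.3 to 0.4%, had one of 0.336%. Exactly 4 UMIs of these genes carried 28 members, and 21 barcodes missed with 3. All 4 reticular genes were seen in 158 members, 3 in 118, 2 in 50 and 1 in 11. Of the second gene set, 197 members (58.5%) held 0 UMIs, 101 held 1 and 39 held 2 or more, while 36 high reticular nuclei failed with exactly 2. Kitl was detected in 94.1% of members, Cxcl12 in 84.6%, Ebf3 in 77.2% and Lepr in 69.7%. In blood-type barcodes, which should lack all 4, Kitl was detected in 8.43%, Cxcl12 in 12.4%, Ebf3 in 2.41% and Lepr in 9.24%, at a median depth of 1396 UMIs.

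Esm1, an endothelial proteoglycan also made by reticular cells and given as a marker of these nuclei, took no part in the choice. It was at 171 CPM (141 to 206) in low and 354 in high reticular nuclei, against 25.3 in the other barcodes and 27.6 in free RNA. The log2 ratio of low to high was -1.05 and lay between -1.23 and -0.95 in every alternative setting run for it. At 2000 UMIs or more Esm1 was at 203 and 418 CPM. The tdTomato transcript was at 235 CPM in low reticular nuclei, 363 in high ones, 243 in the other barcodes, 48.4 in blood-type barcodes and 55.4 in free RNA.

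The loci of the genes that were low in RNA were open. Counts of all peaks over a gene body and 3 kb upstream were summed, as CPM of all peak counts. Gm16685 (chr3:7612705-7690001) was at 74.6 CPM (69.8 to 79.6) in low and 85.6 (79.1 to 92.4) in high reticular nuclei, against 38.4 in the other barcodes. Part of this sum lies in peaks that also count for Il7, which overlaps the region. Nrg3 (chr14:38368952-39473088, minus strand) was at 60.4, 64.4 and 17.7 CPM. Fgf7 (chr2:126034658-126091185) was at 102, 120 and 33.1 CPM, and Tnfsf11 (chr14:78277445-78308043, minus strand) at 105, 114 and 54.3 CPM. In RNA, low and high reticular nuclei differed at these genes by log2 ratios of -4.63 to -2.76, the values that set them apart. In accessibility the log2 ratio of low to high was -0.20 for Gm16685 (-0.35 to -0.05), -0.09 for Nrg3 (-0.26 to 0.08), -0.24 for Fgf7 (-0.36 to -0.11) and -0.12 for Tnfsf11 (-0.24 to 0.01). The intervals of Nrg3 and Tnfsf11 include 0.

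For Fgf7 and Tnfsf11 these small differences changed with depth and with the cut. That of Gm16685 stayed between -0.25 and -0.09 in every alternative setting run for it. That of Nrg3 ran from -0.30 to 0.05, with 1 of 12 settings outside its interval. At 2000 UMIs or more the log2 ratio of accessibility was -0.52 (-0.72 to -0.31) for Fgf7 and -0.44 (-0.65 to -0.23) for Tnfsf11, and 0.03 for Nrg3. When members with any UMI of the 4 genes were moved to the high side, it was -0.04 for Fgf7, 0.04 for Tnfsf11, 0.05 for Nrg3 and -0.16 for Gm16685. Against the other barcodes all 4 loci were more open in low reticular nuclei, with log2 ratios of 0.95 to 1.77.

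The reticular loci were more open than in the other barcodes as well. Cxcl12 (chr6:117168535-117181367) was at 82.8 CPM in low reticular nuclei, 66.1 in high ones and 34.0 in the other barcodes. Kitl (chr10:100015630-100100416) was at 160, 173 and 62.8 CPM, Ebf3 (chr7:137193673-137314445, minus strand) at 217, 203 and 97.4, and Lepr (chr4:101717404-101815352) at 36.3, 46.4 and 18.4. Esm1 (chr13:113209659-113218098) was at 18.4, 14.8 and 8.11 CPM, so that its locus was not less open where its RNA was lower: the log2 ratio to high reticular nuclei was 0.32 (-0.01 to 0.66). Lepr was less open in low than in high reticular nuclei by -0.36 (-0.56 to -0.15), and Cxcl12 more open by 0.32 (0.17 to 0.48). Over 12 alternative settings the Lepr ratio ran from -0.70 to -0.03, with 2 outside its interval, and the Cxcl12 ratio from 0.23 to 0.41.

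**Figure D2:**
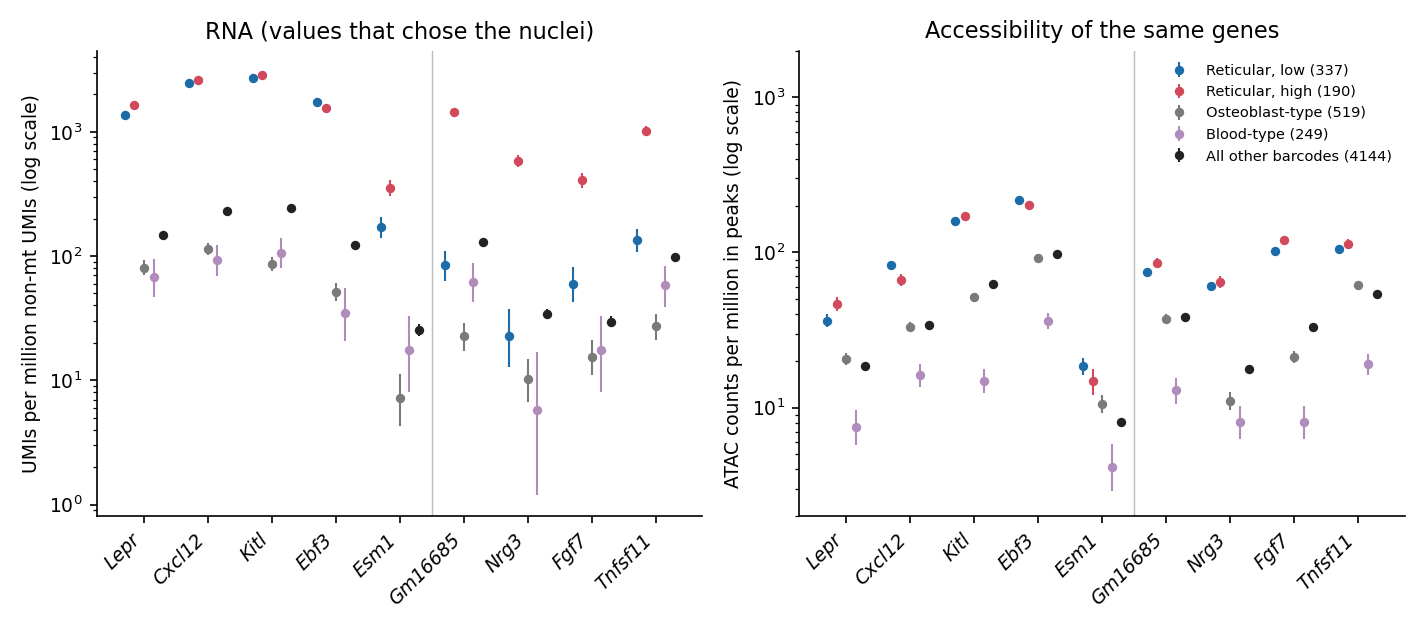
RNA (left, CPM of UMIs) and accessibility over the gene and 3 kb upstream (right, CPM of ATAC counts in peaks), both on log axes, for the 4 reticular genes, Esm1 and, right of the grey line, the 4 genes of the second condition. Points are values summed over each group and bars are 95% Poisson intervals; the other barcodes include the high reticular, osteoblast-type and blood-type ones. Blue and red points lie far apart for the last 4 genes in RNA, for example 84.0 and 1438 for Gm16685, and close together in accessibility, at 74.6 and 85.6.

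Single peaks at these loci were as follows. The Gm16685 peak printed first (chr3:7609741-7610652) was at 30.9 CPM (27.9 to 34.2) in low and 31.0 in high reticular nuclei, against 8.32 in the other barcodes and 3.94 in osteoblast-type ones. An intronic peak of Tnfsf11 (chr14:78287911-78288818) was at 33.4, 32.3 and 11.3 CPM, and one of Fgf7 (chr2:126039369-126040192) at 26.1, 25 and 5.84. An intronic peak of Nrg3 (chr14:39127101-39127942) was at 11.1 (9.29 to 13.1), 7.05 (5.28 to 9.22) and 2.27 CPM, more open in low than in high reticular nuclei. The most covered Cxcl12 peak (chr6:117166729-117167673), 1.33 kb upstream of the gene, was at 35.4 CPM (32.1 to 38.9) in low reticular nuclei, 25.5 in high ones and 14.7 in the other barcodes. Its window holds neither EBF nor C/EBP letters. The Cxcl12 peak printed above (chr6:117175084-117175869) had 43 counts in low reticular nuclei. It was at 3.56 CPM (2.57 to 4.79) in low and 4.79 in high reticular nuclei, against 1.23 in the other barcodes.

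The genes of the rule included, 2144 of 13578 genes with at least 20 UMIs were at least 2-fold higher in low reticular nuclei than in the other barcodes (15.8%), and 2077 at least 2-fold lower (15.3%). The median gene had a log2 ratio of 0.18. These counts describe nuclei picked by their RNA and were not tested. Several of the genes with the highest ratios are described here. Slc26a7, an anion exchanger, was at 136 CPM against 10.4, and Edar, the ectodysplasin receptor, at 104 against 7.96. Rspo2 and Rspo3, secreted enhancers of WNT signalling, were at 173 against 16.4 CPM and 220 against 22.7. Il1rn, the antagonist of the interleukin 1 receptor, was at 102 against 9.74 CPM and Kcnq3, a potassium channel, at 249 against 24.6. Hmgcll1, an enzyme of ketone body synthesis, was at 333 against 31.2 CPM. In high reticular nuclei the same genes lay between 69.6 CPM for Edar and 221 for Hmgcll1. At the low end, Prkg2, a kinase driven by cyclic GMP, was at 6.11 CPM against 195. Atp6v0d2, a proton pump subunit of osteoclasts, had 0 UMIs, under the 4.58 CPM that 3 UMIs would give, against 28.2.

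Of 17 niche factors tested, 11 were at least 2-fold higher than in the other barcodes and 2 lower, with a median log2 ratio of 1.86. Il7, needed by B cell progenitors, was at 71.7 CPM against 8.50, and Il15, a factor for NK cells, at 93.1 against 12.1. Csf1 and Il34, both ligands of the macrophage receptor CSF1R, were at 267 against 44.7 CPM and 88.5 against 9.19. Angpt1, which stabilises vessels, was at 432 against 60.9 CPM, Igf1 at 447 against 84.5 and the adhesion molecule gene Vcam1 at 893 against 257. None of 15 niche factors tested differed 2-fold from high reticular nuclei, although Vcam1 was at 1342 and Angpt1 at 598 CPM there. The loci moved the same way: 6 of 18 niche factor loci were at least 2-fold more open than in the other barcodes, where 4.44% of all 24484 genes were more open and 14.9% less open. Il34 was at 210 against 85.8 ATAC CPM, Il7 at 79.1 against 34.1 and Igf1 at 59.3 against 24.2. The Il7 sum shares peaks with that of Gm16685, the first peak printed above among them.

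Transcription factors of reticular cells were higher in 15 of 23 and lower in 1. Ebf1, a partner of Ebf3, was at 2321 CPM against 609, Foxc1 at 227 against 41.9 and Id4, an inhibitor of bHLH factors, at 311 against 41.9. Snai2, a repressor of epithelial genes, was at 144 against 19.4 CPM. The median log2 ratio to high reticular nuclei was 0.03, and none of 18 tested was 2-fold apart. Of the surface and matrix genes 16 of 24 were higher than in the other barcodes and 1 lower, led by Gdpd2 at 626 against 65.1 CPM and the elastic fibre gene Fbln5 at 517 against 69.5. In this list 4 genes were at least 2-fold lower than in high reticular nuclei, among them the BMP antagonists Grem1, at 101 against 252 CPM, and Chrdl1, at 134 against 309.

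Of 19 adipogenic genes tested, 9 were at least 2-fold higher than in the other barcodes and 0 lower, and of 15 tested against high reticular nuclei 1 was higher and 1 lower. Adipoq, which codes for adiponectin, was at 146.5 CPM in low reticular nuclei, 250 in high ones and 20.8 in the other barcodes. Lpl, a lipase that frees fatty acids from lipoproteins, was at 1409, 2061 and 217 CPM. Pparg, the master regulator of adipocytes, was at 293, 242 and 56.2 CPM. The list's median log2 ratio to high reticular nuclei was -0.42, and that of Adipoq was -0.77 (-1.17 to -0.37). Markers of mature adipocytes were nearly absent from all groups. In low reticular nuclei 7 of 8 had 0 UMIs, and their sum was 3.05 CPM, against 6.15 in high ones and 1.78 in the other barcodes.

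Of 12 genes of IGF binding and regulation tested, 5 were higher than in the other barcodes and 2 lower, and 0 of 7 were 2-fold apart from high reticular nuclei. Igfbp5 was at 2517 CPM in low reticular nuclei, 3935 in high ones and 433 in the other barcodes. Pappa, a protease that frees IGF from its binding proteins, was at 1310, 1202 and 165 CPM. Ghr, the growth hormone receptor, was at 1216, 1694 and 246 CPM. Vegfc, a growth factor of lymphatic and sinusoidal vessels, was at 437 CPM against 46.7, and Tgfbr3, a co-receptor of TGF-beta, at 1126 against 155.

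Counts of signalling genes stand beside the 15.8% higher and 15.3% lower over all genes. Of 27 WNT genes tested, 8 were higher than in the other barcodes and 5 lower, and of 24 BMP and TGF-beta genes 6 were higher and 6 lower. NOTCH genes were higher in 4 of 14 and lower in 3, with the receptor gene Notch3 at 273 CPM against 75.6 and the ligand gene Jag1 at 114.5 against 38.9. Fst, which codes for the activin antagonist follistatin, was at 107 CPM against 17.2, and the FGF receptor gene Fgfr2 at 830.3 against 209.8. Neural adhesion and neuregulin genes were higher in 10 of 24 and lower in 4, and Negr1, a neuronal adhesion gene, was at 927 CPM in low reticular nuclei, 1317 in high ones and 137 in the other barcodes.

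Interferon response genes were higher in 18 of 22 and lower in 1, at 1651 CPM in sum against 711 in the other barcodes, 1811 in high reticular nuclei and 918 in free RNA. B2m, a subunit of MHC class I, was at 865 CPM against 407. In accessibility 0 of 23 loci were 2-fold more open and 2 less open, and 14 lay above a log2 ratio of 0, with a median of 0.15 against -0.14 over all genes. Ifit1 rested on 18 UMIs, at 27.5 CPM against 2.55.

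**Figure D3:**
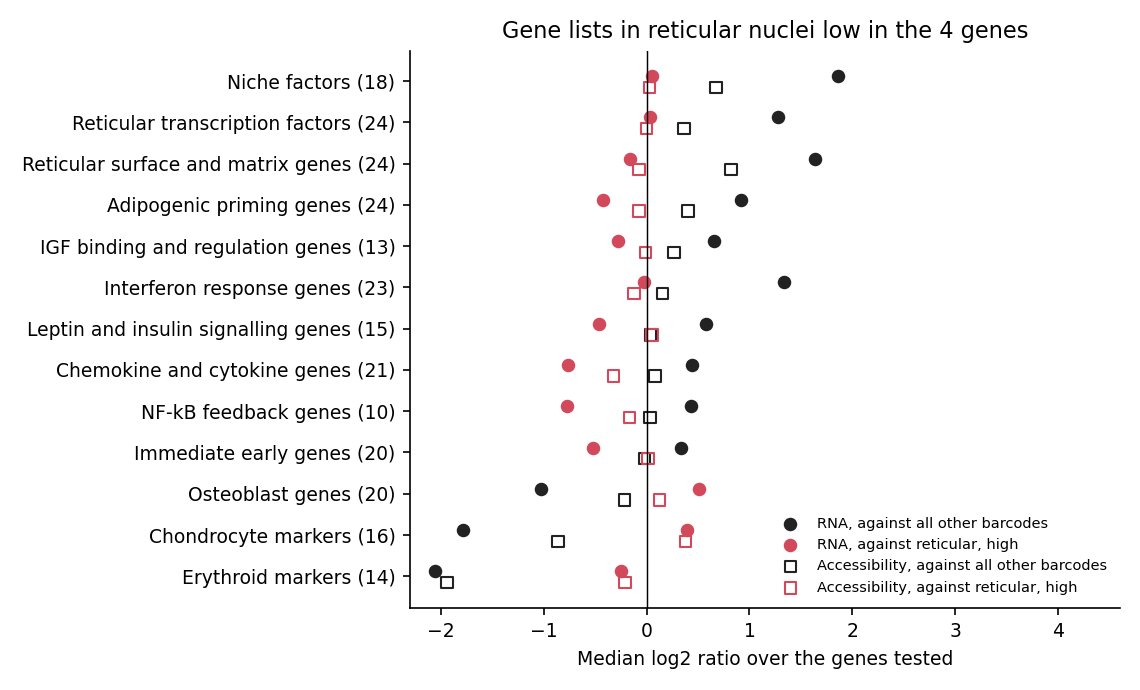
Median log2 ratio over the genes of each list (number of genes in parentheses) in low reticular nuclei, against all other barcodes (black) and against high reticular nuclei (red), for RNA (filled circles) and accessibility of the gene and 3 kb upstream (open squares). Niche factors reach 1.86 in RNA and 0.67 in accessibility against the other barcodes and lie near 0 against high reticular nuclei, while chemokine and NF-kB lists lie at -0.76 and -0.77 in RNA against the latter.

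Against high reticular nuclei, 273 of 6671 genes with at least 20 UMIs were at least 2-fold higher in low reticular nuclei (4.09%) and 341 at least 2-fold lower (5.11%), counts that include the genes of the rule. With CPM computed without Gm42418, the most abundant transcript, the counts were 344 higher and 252 lower, which turned the balance of directions. Chemokine and cytokine genes were lower in 6 of 12 and NF-kB feedback genes in 4 of 9, with 0 higher in either list. Cxcl9 and Cxcl10, chemokines induced by interferon gamma, were at 19.8 against 191 CPM and 13.7 against 125. Ccl2, which draws monocytes, was at 30.5 against 154 CPM, and Nfkbia, the inhibitor that NF-kB itself induces, at 165 against 377. Eya1, a transcriptional co-activator, was at 121 against 440 CPM. At 2000 UMIs or more Cxcl9 was at 26.7 against 268 CPM and Ccl2 at 37.4 against 162. All 93 Cxcl9 UMIs of high reticular nuclei, and 59 of their 61 Cxcl10 UMIs, lay in nuclei of this depth. For these 2 genes the setting therefore drew on nearly the same high reticular UMIs. The number of nuclei that held them was not counted. The log2 ratio of Ccl2, -2.31, became -0.86 when only barcodes with 0 UMIs of the second gene set counted as low. In this setting the other members moved to the high side, which left 197 low against 330 high nuclei. In barcodes thinned to 500 UMIs the ratio was -1.44. Immediate early genes were at 5518 CPM in sum against 7423, with 2 of 18 at least 2-fold lower. Ptgs2, the inducible cyclooxygenase, was at 15.3 against 90.1 CPM, but its log2 ratio went from -2.51 to 0.05 when barcodes above 10% mitochondrial UMIs were left out.

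Cemip, which codes for a hyaluronan-degrading protein, had the lowest ratio to high reticular nuclei among the genes named outside the rule. It was at 4.58 CPM (3 UMIs) in low reticular nuclei, 121 in high ones and 126 in the other barcodes. Its locus was not less open than in high reticular nuclei, at 54.6 (50.5 to 58.9) against 39.3 ATAC CPM, and was at 145 in the other barcodes. An intronic Cemip peak (chr7:83938988-83939890) was at 10.2 CPM in low reticular nuclei, 2.13 in high ones and 30.3 in osteoblast-type barcodes.

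RNA of other cell types also differed in level between the reticular groups. Osteoblast genes were at 35169 CPM in sum in low reticular nuclei, 26302 in high ones, 76071 in the other barcodes and 78416 in free RNA. Col1a1, the main collagen gene of bone, was at 16862, 11972, 34650 and 45222 CPM. Of 20 osteoblast genes 0 were higher and 11 lower than in the other barcodes, and 4 of 19 were at least 2-fold higher than in high reticular nuclei. Runx2, the factor that starts the osteoblast programme, was at 952 CPM in low and 955 in high reticular nuclei, against 596 in the other barcodes and 140 in free RNA. Dmp1, a matrix gene of osteocytes, was at 217 against 84.0 CPM in high reticular nuclei. This log2 ratio of 1.35 became -0.06 when members with any UMI of the second gene set were moved to the high side. Of the low reticular nuclei 33 (9.79%) also passed the osteoblast cut and 2 the blood cut. The 33 held Ibsp, a mineral-binding matrix gene, at 1842 against 439 CPM in the other 304, and Lepr at 1482 against 1350.

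Granulocyte markers were at 804 CPM in sum in low reticular nuclei (12 of 14 detected), 340 in high ones, 1137 in the other barcodes and 1336 in free RNA. Ltf, a granule protein gene, was at 93.1 CPM against 14.3 in high reticular nuclei, with 81.0 in free RNA. Its log2 ratio of 2.61 became -0.04 when members with any UMI of the second gene set were moved to the high side. If each barcode held the 226 UMIs of a near-empty one, free RNA would be 11.6% of the UMIs of low and 8.80% of those of high reticular nuclei. Erythroid markers were at 1230 and 1237 CPM in low and high reticular nuclei and 3274 in the other barcodes. Macrophage and osteoclast markers were at 354 CPM against 981. Of 12 endothelial markers 6 had 0 UMIs, Cdh5 and Kdr among them. In sum these markers were at 88.5 CPM (58 UMIs) in low and 113 in high reticular nuclei. Of the 58 UMIs, 39 were Pecam1 in cluster 6 of the low reticular nuclei, described below. The sum was at 128 CPM in the other barcodes, 68.3 in osteoblast-type ones and 36.3 in free RNA. The part of such RNA in the differences between the reticular groups was not tested.

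Across the genome, 26780 of 202515 peaks with at least 50 counts were at least 2-fold more open in low reticular nuclei than in the other barcodes (13.2%) and 77885 less open (38.5%). The median peak had a log2 ratio of -0.51. Against high reticular nuclei, 3110 of 66432 peaks were more open (4.68%) and 3369 less open (5.07%), with a median of -0.01. The Anxa11 peak printed above (chr14:25812044-25812895, 29.7 kb upstream of the gene) was at 11.2 CPM (9.36 to 13.2) in low reticular nuclei, 3.46 in high ones, 0.772 in the other barcodes and 0.179 in osteoblast-type ones. The Slco1a5 peak printed above (chr6:142307081-142307973) was at 11.6, 4.39, 1.17 and 0.671 CPM in the same order. A peak 6.37 kb upstream of Gm20619 (chr6:6241858-6242722) was at 8.52, 3.86, 0.853 and 0.671 CPM, and the RNA of this noncoding gene was at 148 CPM in low reticular nuclei, 90.1 in high ones and 15.2 in the other barcodes.

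Across genes, RNA and accessibility compared as follows. Of 2114 genes at least 2-fold higher in RNA than in the other barcodes, 63.9% were more open, with a median log2 accessibility ratio of 0.14. Of 2048 lower genes 16.2% were more open, with a median of -0.41, and of 9290 other genes 29.6%. Genes are not independent replicates, and these shares are a description.

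Letters of transcription factors differed between the peak sets. Among the 1000 peaks of highest ratio to the other barcodes, 30.1% held the C/EBP letters, against 15% of all peaks tested. The STAT letters (TTCNNNGAA) were in 19.8% against 10.2% and the TEAD letters (GGAATG) in 28.6% against 18.3%. The NFI half-site (TTGGCA, which can lie inside a C/EBP match) was in 28.7% against 19.9%. The sets also differed in the share of peaks near a gene start, 1.4% against 8.86%, and in median GC content, 43% against 48%. The part of these in the letter shares was not tested. The EBF letters were in 10.6% against 11.4%, and the AP-1 letters in 3.5% against 20.4%.

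Between the reticular groups the AP-1 letters stood out. They were in 54.7% (51.6 to 57.8%) of the 1000 peaks least open in low against high reticular nuclei and in 4.9% (3.65 to 6.43%) of the 1000 most open ones, with 15.2% over all peaks tested. RUNX letters (TGTGGT) were in 28.9% and 42.0% of the same sets and in 29.5% of all. These peaks were ranked by the ratio itself, so their values describe the ranking. A peak over an exon of Liph, a phospholipase gene (chr16:21975896-21976791), was at 0.992 CPM (0.513 to 1.73) in low and 13.7 in high reticular nuclei. The peak nearest AC104866.2 (chr17:49246669-49247590), printed above, was at 5.38 CPM (4.15 to 6.85) in low and 22.1 in high reticular nuclei, and at 3.95 in the other barcodes. The last window, with 2 AP-1 matches (chr8:125343646-125344579), was at 8.68 and 33.1 CPM.

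Counted per nucleus, peaks with AP-1 letters took a median of 9.47% of ATAC counts in low reticular nuclei (quartiles 8.77 and 11.1%) and 12.5% in high ones (9.25 and 16.4%), so the quartile ranges overlapped. The medians were 9.78% and 13.8% at 2000 UMIs or more, and 9.31% and 12% at up to 10% mitochondrial UMIs. Immediate early and NF-kB feedback RNA were at 5518 and 937 CPM in low reticular nuclei, 7423 and 2134 in high ones and 3993 and 690 in the other barcodes, whose median AP-1 share was 10.6%. Across these groups the RNA sums and the share did not keep 1 order.

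**Figure D4:**
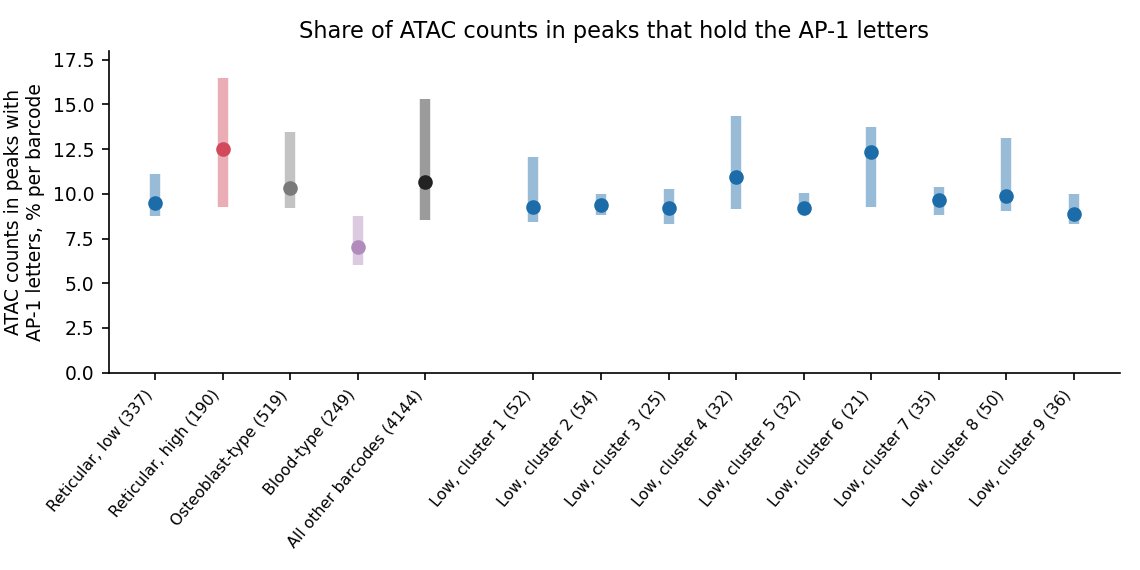
Share of each barcode's ATAC counts in peaks whose central 300 bases hold the AP-1 letters, as the median (point) and the quartiles (bar), for the groups and for the 9 clusters of low reticular nuclei, with the number of barcodes in parentheses. Low reticular nuclei have a median of 9.47% and high ones 12.5%, and clusters 4 and 6 lie above the other clusters.

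The low reticular nuclei were not uniform. Leiden clustering on 2000 variable genes, without the genes of the rule, gave 9 clusters of 21 to 54 nuclei, which are described by number. Cluster 9 (36 nuclei, 3.8% mitochondrial UMIs) held the most RNA of Lepr, at 2577 CPM, Cxcl12, at 4422, Ebf3, at 2841, and Igf1, at 888. Kitl did not follow, at 2558 CPM in cluster 9 against 5482 in cluster 4. Cluster 9 held the least Col1a1 RNA, at 8239. Its interferon response genes were at 2714 CPM in sum, and Itih5 and Gabrg3 led it. Clusters 1 to 3 had medians of 952 to 1221.5 UMIs and the most Gm42418, an rRNA-rich transcript, at 351733 to 414568 CPM. Clusters 4 and 8 (32 and 50 nuclei) held immediate early genes at 9593 and 11094 CPM and NF-kB feedback genes at 1988 and 1705, and were led by Nr4a2 and by Retnlg, Ccl2 and Nr4a3. Their AP-1 shares of ATAC counts were 11% and 9.87%. Cluster 6 (21 nuclei) was led by Pecam1, an adhesion gene of endothelium, at 1088 CPM against 19.4 in the other clusters, with Ppara and Pde4c. Its immediate early genes were at 8729 CPM and its NF-kB feedback genes at 1311, with the highest AP-1 share, 12.4%. Outside clusters 4, 6 and 8, immediate early genes lay between 1972 (cluster 9) and 4567 CPM (cluster 3). AP-1 shares there lay between 8.85% (cluster 9) and 9.63% (cluster 7). Among clusters 4, 6 and 8 the share fell as immediate early RNA rose. The relation of share and RNA across clusters was not tested. Cluster 7 was the deepest, at a median of 3263 UMIs, and was led by Spata13 and the cycling genes Cenpf and Mki67, at 155 and 148 CPM (23 and 22 UMIs).

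Levels also followed RNA quality and depth. From the tercile with a median of 3.2% mitochondrial UMIs to that with 20.01%, Lepr went from 1870 (1701 to 2052) to 850 CPM (724 to 992) and Cxcl12 from 3192 to 1695, while Col1a1 went from 11841 to 21216. Kitl did not follow, at 2577, 2526 and 3091 CPM. By depth, Kitl went from 4233 CPM in the shallowest tercile to 2255 in the deepest, Cxcl12 from 1671 to 2890 and Igf1 from 152 to 550.

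**Figure D5:**
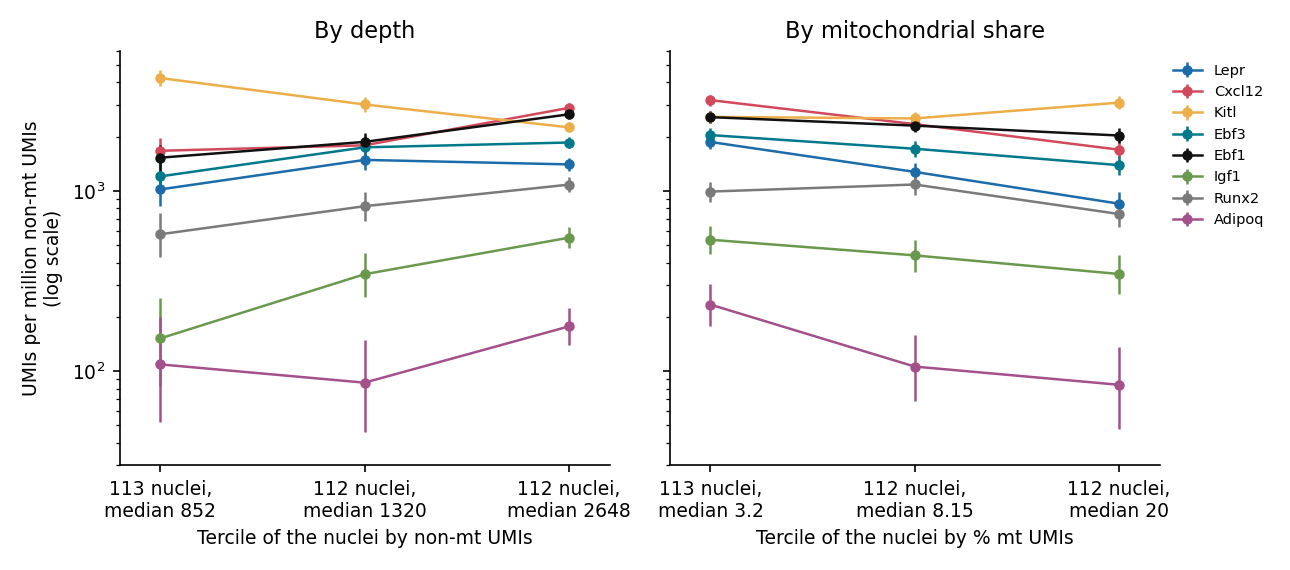
Levels of 8 genes (CPM of UMIs, log axis, 95% Poisson intervals) in terciles of the 337 low reticular nuclei by depth (left, median UMIs under each) and by mitochondrial share (right, median percent). Lepr and Cxcl12 decline from 1870 to 850 and from 3192 to 1695 with the mitochondrial share, and Kitl declines with depth from 4233 to 2255. Lepr, Cxcl12, Kitl and Ebf3 are genes of the rule, which asks for a higher summed share in nuclei under 1000 UMIs.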

How the data were processed

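The authors deposited raw counts for all 728634 barcodes of 1 library, with Cell Ranger ARC 2.0.0 named in the file headers and build mm10 in the submitters' processing notes: UMI counts for 32293 genes and ATAC counts for 203545 peaks. A separate deposited peak list was not used here. The members and gene lists were chosen with earlier results of these data known. Counts were summed over barcodes and scaled to CPM of non-mitochondrial UMIs or of peak counts. For log2 ratios, 0.5 was first added to each count. Calls of 2-fold needed 20 UMIs or 50 ATAC counts over both sides. Intervals of ratios are exact and conditional on the sum of counts. Named genes were the 8 of the rule, Esm1 and tdTomato, the 15 highest and 10 lowest ratios to the other barcodes (at least 100 UMIs), the 10 highest and 10 lowest to high reticular nuclei (at least 50 UMIs), up to 4 genes of each list by size of ratio and others that a sentence turns on, and the 5 leading genes of each cluster. Genes named beyond these were chosen after their values were seen. Gene models were GENCODE M21 on GRCm38, matched by identifier for 99.8% of genes. Doublets were not removed in the values reported. Motif letters were searched for 9 factor families. Clusters used scanpy 1.11.5 (15 components, 15 neighbours, resolution 1), with numpy 2.4.6, scipy 1.17.1 and Python 3.11.15. The calling step was tested on simulated data. Alternatives numbered 15 planned and 1 chosen after seeing the data, in which high reticular nuclei left the comparison group. Results on 1 withheld item are not reported here.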

Additional observations from a re-analysis of the deposited data

Results flagged for a closer look

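A reporter sequence that the labels do not name had counts in these nuclei. The eGFP contig was at 180 CPM (95% Poisson interval 149 to 216, 118 UMIs in 64 nuclei, 19.0%) in low reticular nuclei and at 244 CPM in high ones, against 77.7 in osteoblast-type, 23.3 (12 to 40.6) in blood-type and 55.3 in all other barcodes, and 12.6 in free RNA. No other comparison of the report named this contig. It stayed among the genes tested and counted against the other barcodes and in the CPM totals. Its source was not tested.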

How the results depend on the processing

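With 1 library, leaving out a replicate was not possible. No paired analysis was possible because there was 1 library. The share of low reticular nuclei was 8.84% at a reticular cut of 0.3%, 5.18% at 0.6%, 4.40% with 0 UMIs of the second gene set, 4.73% at 2000 UMIs or more and 14.3% at up to 10% mitochondrial UMIs. Under this last limit 1346 genes were lower than in the other barcodes, 17135 peaks more open and 27507 less open. Thinning every barcode to 500 UMIs gave 1410 genes higher and 1166 lower than in the other barcodes, and 58 higher and 187 lower than in high reticular nuclei. With 1 count added 1317 genes were lower than in the other barcodes. A minimum of 50 UMIs gave 34 genes higher and 166 lower than in high reticular nuclei, and a cut of 0.6% gave 168 higher. Against high reticular nuclei the log2 ratio changed sign for Dmp1 (-0.062) and Ltf (-0.041) when members with any UMI of the second set moved to the high side. It also did so for Ltf (-0.66) at an excluded-gene cut of 0.05%, and for Ptgs2 (0.053) at up to 10% mitochondrial UMIs. The cause of these changes was not tested. CPM without Gm42418 gave 1879 genes higher and 2234 lower than in the other barcodes, and 344 higher and 252 lower than in high reticular nuclei. Removing the 161 barcodes of highest doublet score, 17 of them low reticular, changed no count by 1.5 times. Scrublet's own threshold had marked 6 barcodes (0.134%).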
